A study of Rattus norvegicus with 6 samples.

Results

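The miR-181 family was followed in the left ventricle of OLETF rats, a strain that becomes obese and diabetic, and LETO rats, its non-diabetic control. Members were taken by name, as every assay whose name begins with miR-181 once the species prefix is removed, with assays marked * (passenger strands) left out. This gave 2 of 584 miRNA assays, miR-181a and miR-181c. Both lie on the first of 2 TaqMan cards (card A), with 1 well each per sample. The family was chosen by the difference of miR-181a between OLETF and LETO in these same samples, relative to 2 median references, so that difference is given as a description without a test. miR-181c belongs by name alone.

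RNA came from heart tissue labelled left ventricle, from 3 OLETF rats (disease state diabetes) and 3 LETO rats (healthy control), and the labels give no age. All rats were anesthetized and ventilated before the heart was taken. Every diabetic rat was OLETF and every control LETO, so diabetes, strain and obesity cannot be told apart. Whether the 3 samples of a group came from separate litters or days is not stated, so any p-value speaks for the spread between these samples. RNA of whole tissue was measured, so fewer cells of a type and less RNA per cell cannot be told apart either.

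A miRNA binds its targets mainly through its seed, bases 2 to 8 from the 5′ end, so miRNAs with the same seed can bind many of the same messages. miR-181a is known for setting the signalling threshold of T cells, miR-181b for damping NF-κB signalling in endothelium, and miR-181c for acting on a mitochondrially encoded subunit of cytochrome c oxidase in heart muscle cells. The mature rat sequences, credited to RefSeq on the GRCr8 build, are shown because both assays aim at near-identical molecules. They are written 5′ to 3′ with the seed in capitals:

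miR-181a-5p: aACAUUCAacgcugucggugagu

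miR-181c-5p: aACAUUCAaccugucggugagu

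miR-181b-5p: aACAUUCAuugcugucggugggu

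miR-181d-5p: aACAUUCAuuguugucggugggu

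miR-181a-1-3p: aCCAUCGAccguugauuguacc

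The 4 family members of the 5′ arm share the seed ACAUUCA, and no other of the 693 mature names in the table has it. miR-181c, at 22 bases, is miR-181a, at 23, with 1 base removed at position 11 from the 5′ end, downstream of the seed. Relative to miR-181a and counted from its 5′ end, miR-181b carries the 3 substitutions A9U, C10U and A21G. miR-181d carries the 4 substitutions A9U, C10U, C12U and A21G. No assay named miR-181b or miR-181d was among those analysed here. The last sequence is the passenger strand of the miR-181a-1 hairpin, with the seed CCAUCGA, and has an assay of its own on the second card (card B).

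The hairpins lie in 3 pairs in GRCr8. Mir181a-1 (chr13:52037067-52037166) is 61 bases from Mir181b1 (chr13:52037228-52037337), and both lie within the long noncoding RNA gene LOC108352541, on the same strand. Mir181a2 (chr3:43025563-43025679) is 986 bases from Mir181b2 (chr3:43026666-43026753), and both lie within the span of Nr6a1, on the opposite strand. Mir181c (chr19:40888291-40888396) is 77 bases from Mir181d (chr19:40888474-40888556), and no listed gene contains them. miR-181a-5p has the same sequence in both of its hairpins, so its assay cannot tell the chromosome 13 from the chromosome 3 source.

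A level here rests on the threshold cycle (Ct), the PCR cycle at which the product crosses a detection threshold. The more RNA a well holds, the lower its Ct, and with perfect doubling a step of 1 cycle equals 1 log2 unit. A Ct of 35 or more was treated as not measured. Between 197 and 292 of the 584 assays were measured per sample, the highest number in LETO replicate 3, which also measured 50 assays that no other sample did. In that sample the median card A assay came up 3.34 cycles earlier than the mean of LETO replicates 1 and 2. U6, the small nuclear RNA used as endogenous control, came up 0.44 cycles earlier on card A. On card B the Ct of U6 there was 17.96, later than 17.73 and 16.07 in LETO replicates 1 and 2. Heart muscle, endothelial and smooth muscle marker miRNAs were measured in all 6 samples (7 of 7, 2 of 2 and 2 of 2 assays).

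miR-181a was detected in every sample. In LETO its Ct was 32.53 in replicate 1, 31.90 in replicate 2 and 28.96 in replicate 3. In OLETF the same replicate numbers gave 32.16, 32.83 and 31.42. LETO replicate 3 stood apart, and the other 5 samples lay between 31.42 and 32.83, so the raw Ct of the strains overlapped. miR-181a came up 3.25 cycles earlier in LETO replicate 3 than in the mean of the other LETO samples, close to the 3.34 cycles of the median card A assay.

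Relative to U6 of the same card, the level of miR-181a was -13.32, -14.44 and -11.07 log2 units in LETO and -14.52, -14.89 and -13.20 in OLETF. The strains overlapped, as OLETF replicate 3 lay above LETO replicates 1 and 2. LETO averaged -12.94 ± 1.71 and OLETF -14.20 ± 0.89 (SD, n = 3 each), a difference of -1.26 with an SE of 1.38. This is a ratio of 0.417, the value the authors' deposited table also gives. The median difference over the 193 assays tested was -0.60, with 156 lower in OLETF. Without LETO replicate 3 the miR-181a difference was -0.32, and without LETO replicate 2 it was -2.01.

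Relative to the median of card A, taken over its 122 assays measured in all 6 samples, the picture was tighter. The level of miR-181a was -2.50, -2.38 and -2.46 in LETO and -3.23, -3.82 and -3.46 in OLETF. All 3 OLETF samples lay below all 3 LETO samples, with a gap of 0.73 between the nearest ones. LETO averaged -2.45 ± 0.06 and OLETF -3.51 ± 0.30 (SD, n = 3 each), a difference of -1.06 with an SE of 0.351, or a ratio of 0.48. With this reference the median difference over all assays tested was -0.31. Lower in every OLETF than in every LETO sample were 9.26% of the 162 assays measured in all samples, and with U6 as reference it was 0%.

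**Figure D1:**
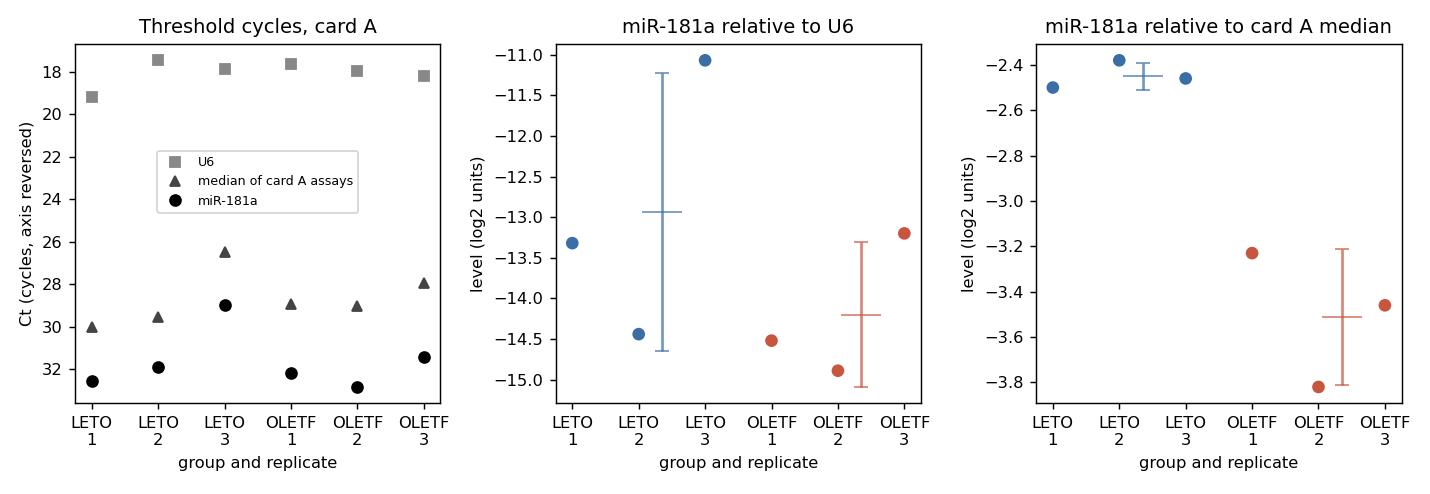
Left, Ct of miR-181a, U6 and the median card A assay in each sample, with the axis reversed so that more RNA is higher. Middle and right, level of miR-181a in log2 units relative to U6 and to the card A median, as points per sample (LETO blue, OLETF red) beside mean and SD. The strains overlap relative to U6 and lie 0.73 apart relative to the card A median.

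The LETO SD of 0.06 was smaller than the error of a single well. Over 124 pairs of wells of the same assay on card B with a mean Ct from 28 to 34, 1 well had an SD of 0.569 cycles. An SD of that size alone would give a difference of 3 against 3 samples an SE of 0.465. The closeness of the 3 LETO values relative to the card median is thus narrower than repeat wells of other assays were.

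U6 averaged over both cards gave a miR-181a difference of -1.15 (SE 1.47), and 3 further references gave smaller ones. With the median of both cards, miR-181a lay at -2.61, -2.11 and -2.29 in LETO and at -2.73, -3.48 and -3.12 in OLETF. The strains still did not overlap, as 7.41% of assays did in that direction, but the gap was 0.12 and the difference -0.77 (SE 0.424). With the small RNA controls of card A other than U6, the levels were -3.19, -1.70 and -3.68 in LETO and -2.64, -3.09 and -4.08 in OLETF. These overlapped (0.617% of assays did not, in that direction), with a difference of -0.41 (SE 0.688), while the median difference over all assays moved to 0.37. Quantile normalization gave -0.43 (SE 0.396), again with overlap, where 4.94% of assays lay apart in that direction. The sign was the same under every one of these references, and the size depended on the reference. As miR-181a was chosen by this difference in the same samples, the shared sign is no separate evidence.

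**Figure D2:**
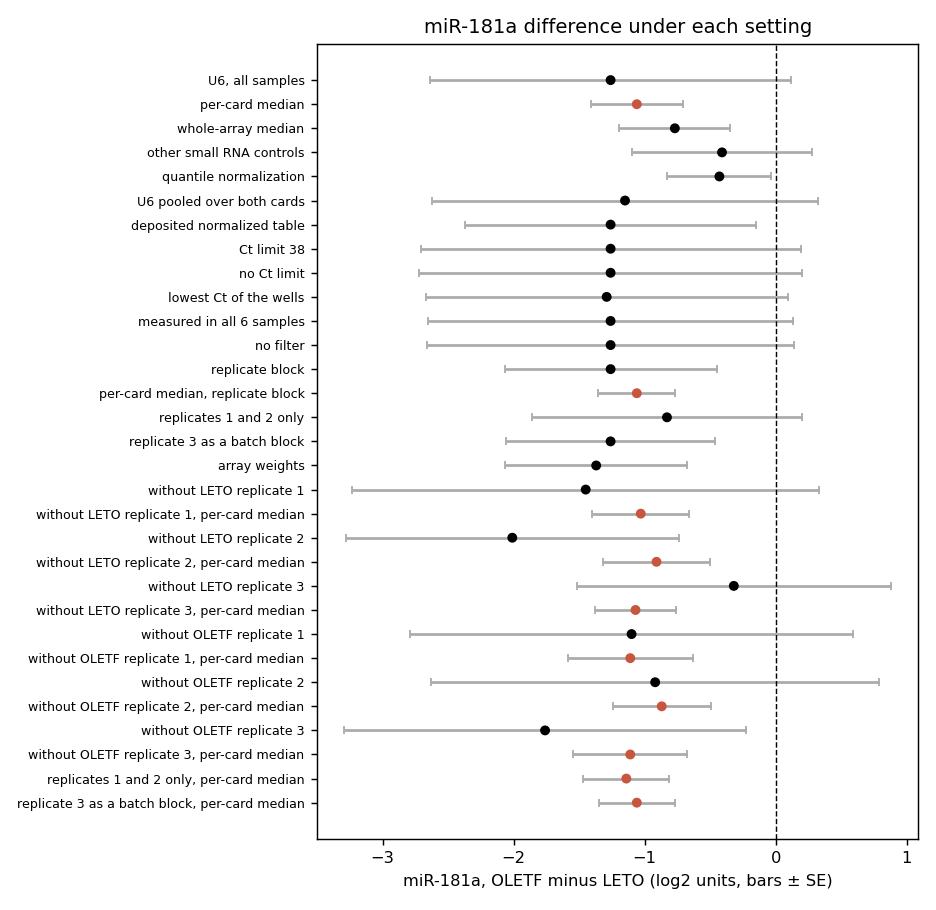
Difference of miR-181a between OLETF and LETO in log2 units under each reference, Ct limit, block and left-out sample, with bars of 1 SE. Points using the per-card median are red. All points lie below 0, from -2.01 to -0.32, and all reuse the wells by which miR-181a was chosen.

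The position of miR-181a among its neighbours on the card was read as a rank, which restates the card A values above and is no separate evidence. Among the 122 card A assays measured in all samples, ranked from the most abundant, it stood at 104, 101 and 106 in LETO and at 109, 113 and 117 in OLETF. miR-181a was thus among the low assays of these hearts in both strains, and its ranks did not overlap between the strains, as those of 6.56% of these assays did not in that direction. Assays can amplify with unlike efficiency, so the rank orders Ct values and not numbers of molecules. Of the 122 assays, 6 had a difference further below 0 than miR-181a on the shared card scale.

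**Figure D3:**
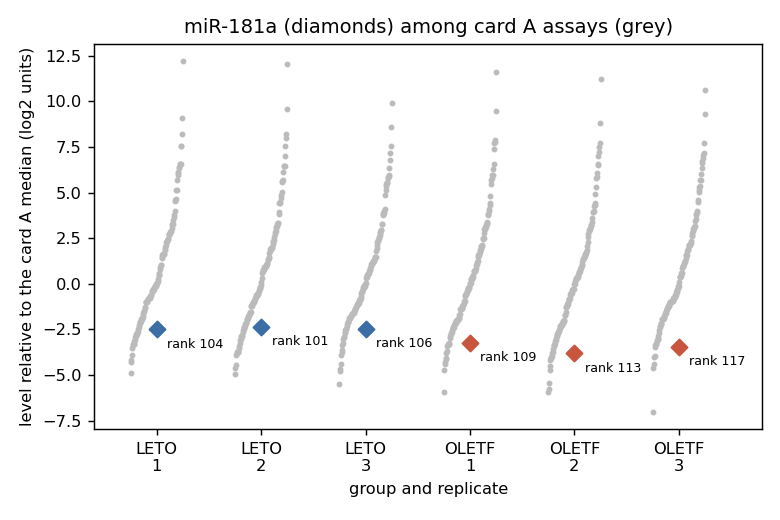
Level relative to the card A median in log2 units for the 122 card A assays measured in all samples (grey, sorted within each sample) and for miR-181a (diamonds, LETO blue, OLETF red), with the rank of miR-181a counted from the most abundant. The ranks run from 101 to 106 in LETO and from 109 to 117 in OLETF.

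miR-181c was close to the detection limit. In LETO its well came up at 39.07 cycles in replicate 1, 38.68 in replicate 2 and 32.88 in replicate 3. In OLETF it came up at 37.10, 36.49 and 36.05 cycles. It was measured under the limit of 35 in LETO replicate 3 alone, as were 28 of the 375 card A assays. The test across assays needed at least 2 measured samples in each group, so miR-181c was not tested. With miR-181a in 6 samples and miR-181c in 1, the family was measured in 7 of its 12 assay and sample combinations.

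Taken without a Ct limit, miR-181c lay at -19.86, -21.22 and -14.99 log2 units relative to U6 in LETO and at -19.46, -18.56 and -17.83 in OLETF. The LETO values enclosed all OLETF values. The means were -18.69 ± 3.28 and -18.61 ± 0.82 (SD, n = 3 each), a difference of 0.08 (SE 1.53, limma adjusted p = 0.992 over 255 assays; two-sided exact permutation p = 1, where 3 against 3 samples allow no p below 0.1). Without LETO replicate 3 the difference was 1.93, and every Ct behind it was above the limit of 35. The authors' deposited table gives a ratio of 1.06 for miR-181c, computed from the same wells. Relative to the card A median, miR-181c lay at -9.04, -9.17 and -6.38 in LETO and at -8.17, -7.49 and -8.09 in OLETF. The difference was 0.28 (exact permutation p = 1), and 1.19 without LETO replicate 3.

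LETO replicate 3 weighed differently on the members. There miR-181c came up 6.19 and 5.81 cycles earlier than in LETO replicates 1 and 2, and miR-181a 3.57 and 2.94 cycles earlier. Of the 147 card A assays with a Ct in all samples, 3 came earlier by more than miR-181c and 80 by more than miR-181a, each against the mean of LETO replicates 1 and 2.

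The Ct difference of the 2 assays within a sample needs no reference. miR-181c came up later than miR-181a in all 6 samples, by 6.54, 6.79 and 3.92 cycles in LETO and by 4.94, 3.67 and 4.63 cycles in OLETF. The spacing was widest in LETO replicates 1 and 2, and LETO replicate 3 lay inside the OLETF range. LETO averaged 5.75 ± 1.59 cycles and OLETF 4.41 ± 0.66 (SD, n = 3 each). Of these 6 values, 5 use a miR-181c Ct above 35, where a single well is least precise, and the value for LETO replicate 3 is the one from measured wells. As miR-181a enters the spacing, it is given as a description.

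**Figure D4:**
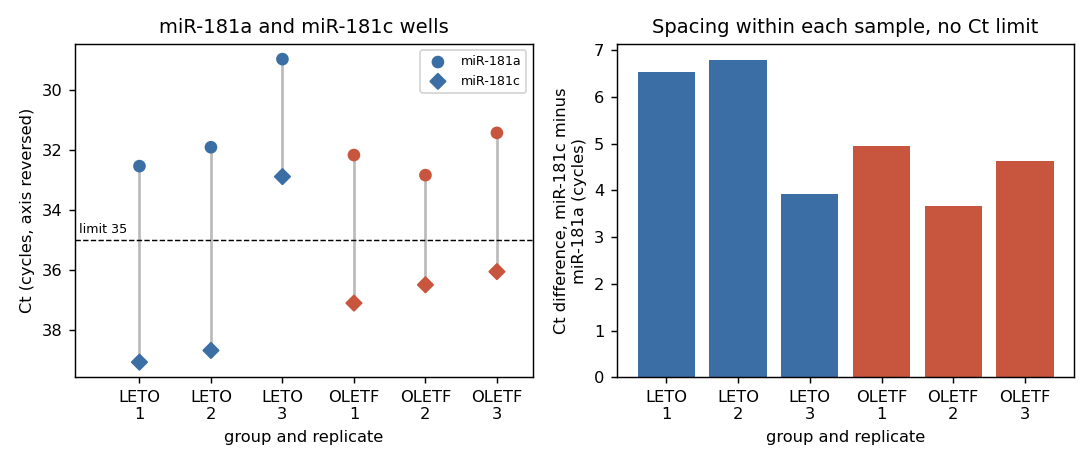
Left, Ct of miR-181a (circles) and miR-181c (diamonds) in each sample, with the axis reversed and the limit of 35 dashed. Right, Ct of miR-181c minus that of miR-181a in cycles, without a Ct limit (LETO blue, OLETF red). The spacing runs from 3.67 to 6.79 cycles, and miR-181c is under 35 in LETO replicate 3 alone.

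The passenger strand of the miR-181a-1 hairpin, miR-181a-1*, had 2 wells per sample on card B. In LETO its wells came up at 33.21 and not at all in replicate 1, at 34.67 and not at all in replicate 2, and at 31.32 and 31.77 in replicate 3. In OLETF neither well came up in replicate 1, 1 came up at 34.73 in replicate 2, and both did in replicate 3, at 35.23 and 33.87. Relative to the card B median its level was -4.09, -4.42 and -3.81 in LETO and -4.70 and -5.95 in OLETF replicates 2 and 3, so the 2 measured OLETF samples lay below all LETO samples. With missing samples allowed, this held for 11.9% of the 193 assays tested. Against the other small RNA controls they overlapped, lower in 3 of 6 pairs of samples. Relative to U6 they also overlapped, with -15.49, -18.60 and -13.59 in LETO and -17.86 and -16.69 in OLETF. The measured levels relative to U6 gave a difference of -1.39, or a ratio of 0.383. The authors' deposited table lists a ratio of 0.102 for one well and 0.486 for the other. Those ratios were matched with wells that did not come up counted as 40 cycles, so they rest in part on wells without a Ct.

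By limma with U6 as reference, 0 of 193 assays passed an adjusted p of 0.05 (0% of those tested; 2 at an unadjusted p under 0.05, smallest adjusted p = 0.997). With the per-card median 0 of 193 passed as well (12 at an unadjusted p under 0.05, smallest adjusted p = 0.288). The SE of miR-181a relative to U6 equalled the median SE of all assays, 1.38, as limma in effect pooled the spread.

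Named for their likeness to miR-181a were the 5 assays with the highest Pearson correlation of levels relative to the card median, over 6 samples and 161 other assays. They were miR-101a (0.970), the rat assay of miR-1 (0.929), miR-301b (0.895), miR-499 (0.895) and miR-29b (0.880), all on card A. miR-181a was chosen by its difference between the strains on this scale, so a ranking by likeness to it favours assays lower in OLETF. All 5 were, by -0.54 to -1.23, which is no separate evidence. miR-1 and miR-499 are miRNAs of heart muscle, the latter encoded in a myosin heavy chain gene, and miR-29b is known to act on collagen messages. miR-101a lay at -1.47, -1.56 and -1.48 in LETO and at -2.05, -2.81 and -2.19 in OLETF, which like miR-181a put OLETF replicate 2 lowest. The rat miR-1 assay lay at 6.36, 6.46 and 6.36 in LETO and at 5.98, 5.88 and 5.69 in OLETF. The mouse assay of miR-1 lay at 3.22, 3.93 and 1.23 in LETO and at 2.10, 1.03 and 1.92 in OLETF, so by that assay the strains overlapped. miR-499 lay at 1.45, 1.14 and 1.32 in LETO and at 0.28, 0.35 and 0.59 in OLETF. The points share RNA, card and the card median, and the median correlation with miR-181a over all assays was 0.34. Relative to U6 it was 0.91, with 128 assays above 0.8 against 10 with the card median, since whole samples shifted together.

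Other miRNAs with roles near those of the family were counted from 3 lists. Of 8 leukocyte miRNAs 7 were tested and 0 passed. Relative to the card median 1 lay lower and 6 higher in OLETF, with a median difference of 0.19 against -0.31 for all assays, and relative to U6 4 lay lower and 3 higher. Against the other small RNA controls all 7 lay higher, as most assays did. For LETO and OLETF in turn, miR-150, a lymphocyte miRNA, lay at 7.12 ± 1.14 and 7.31 ± 0.54 (SD, n = 3 each), and miR-146a, a brake on NF-κB signalling, at 6.05 ± 0.81 and 6.38 ± 0.10. miR-142-3p, found across blood cell lineages, was the member on the lower side, at -0.20 ± 0.55 and -0.69 ± 0.70.

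Blood cell markers were also summed on the card median scale. As miR-181a was chosen by its strain difference on that scale, its separation is not a like comparison for them. Of 5 lymphoid and myeloid markers, 4 were measured in all samples. Their summed level, in multiples of the card median assay, was 62.5 to 262 in LETO and 113 to 226 in OLETF, so the LETO range enclosed the OLETF range. For the erythroid markers miR-486 alone was measured in all samples, at 13.7 to 69.9 in LETO and 35.9 to 66.5 in OLETF, and miR-451 in 1 LETO sample. LETO replicate 3 set the low end of LETO for both, with miR-150 at 5.83 and miR-486 at 3.78 log2 units. In LETO replicates 1 and 2 miR-150 lay at 7.54 and 7.98, and miR-486 at 6.13 and 5.69. The part of blood cells in the miR-181a values was not tested.

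Of 8 miRNAs linked to mitochondria, as miR-181c is, 7 assays were tested and 0 passed. miR-1 is among the 7 by both its mouse and its rat assay, and miR-338-3p and miR-494 were not tested. All 7 lay lower in OLETF relative to U6, with a median of -0.75 against -0.60 for all assays, and 5 of 7 did relative to the card median, with a median of -0.35 against -0.31. Of all 193 assays tested, 156 and 130 lay lower with these references in turn. With the other small RNA controls the direction turned, with 2 lower and 5 higher. The summed level of the 7, each in multiples of the median assay of its own card, was 307 to 400 in LETO and 246 to 280 in OLETF. These ranges did not overlap, as those of 9.26% of the 162 single assays measured in all samples did not in that direction. miR-378, on card B, and the rat miR-1 assay, on card A, made up most of the sum. The highest levels were those of miR-378 and of the rat miR-1 assay, whose values stand above. miR-378, hosted in a gene for a regulator of mitochondrial energy metabolism, lay at 7.93 ± 0.32 in LETO and 7.58 ± 0.17 in OLETF relative to the card B median (SD, n = 3 each). miR-210, which acts on iron-sulphur cluster assembly, lay at 0.50 ± 0.49 and 0.55 ± 0.20 relative to the card A median.

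Of 9 miRNAs tied to inflammation of the vessel wall, as miR-181b is, 8 were tested and 0 passed. Relative to the card median 2 lay lower and 6 higher in OLETF, with a median of 0.30, and relative to U6 3 lay lower and 5 higher. With the other small RNA controls 1 lay lower and 7 higher. Of the 6 higher members on the card median scale, all but miR-92a had LETO replicate 3 as the lowest LETO sample. That count thus rests in part on this sample. Beside miR-146a, the highest level was that of miR-17, a miRNA of a cluster active in dividing cells, at 3.11 ± 0.69 in LETO and 3.39 ± 0.03 in OLETF. miR-155, an inflammatory miRNA of leukocytes and endothelium, lay at -0.82 ± 0.71 and 0.07 ± 0.35, and miR-222, a miRNA of vessel wall cells, at 2.87 ± 0.66 and 3.43 ± 0.27 (SD, n = 3 each, card median). miR-31 lay at -0.96, -1.14 and -0.90 in LETO and at -1.37, -2.32 and -1.37 in OLETF, without overlap and on the lower side as miR-181a did. That held for 9.26% of the 162 assays measured in all samples with the card median, and for 0% with U6. miR-221 was measured in 1 LETO sample.

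Of all 193 assays tested, 156 lay lower in OLETF relative to U6 and 130 relative to the card median, with medians of -0.60 and -0.31. Among the cell type markers of the ventricle, the 7 heart muscle assays all lay lower with both references, and 0 passed. Their medians, -0.54 relative to U6 and -0.34 relative to the card median, were near those of all assays. The 7 assays cover 6 miRNAs, as miR-1 has a mouse and a rat assay. The direction depended on the reference, as 3 of 7 lay higher with the median of both cards, 5 against the other small RNA controls and 4 after quantile normalization. Their summed level relative to the card median was 1090 to 4780 in LETO and 1700 to 3240 in OLETF. LETO replicate 3 set the low end, with miR-133a, the highest of them, at 9.91 against 12.18 and 12.06 in LETO replicates 1 and 2. In OLETF miR-133a lay at 11.62, 11.21 and 10.64. Both smooth muscle assays also lay lower (median -0.47 relative to the card median; both higher with the other small RNA controls, and 1 with quantile normalization), and, relative to the card median, of the endothelial assays 1 lay lower and 1 higher. Of 4 fibroblast markers 3 were tested, with 2 lower and 1 higher relative to the card median, and 1 lower and 2 higher with the median of both cards. The part of these cell types in the miR-181a values was not tested.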

How the data were processed

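Per the labels' protocols, RNA of 6 left ventricles was copied with a pool of stem-loop primers, then measured by PCR on TaqMan cards for rodent miRNAs. The labels also name SYBR Green as the dye. The deposited Ct of each well, a score in cycles, had no normalization, per the file headers. The deposited normalized values are delta Ct, on a log2 scale where higher means less RNA: Ct minus U6 of the same card, with assays without a determined well counted as 40 (recomputed within 3.75e-06). The authors' deposited ratio (fold) is OLETF over LETO per well, and was matched with wells without a Ct counted as 40. Baseline and threshold settings are not given in the sources used here.

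Each assay entered as the mean of its determined wells, and 35 cycles or more counted as not measured. Levels were reference minus Ct. The 193 assays with 2 or more measured samples per group were compared with limma 3.58.1 (lmFit, eBayes, two-sided, Benjamini-Hochberg adjustment) in R 4.3.3, on all 6 samples, after a check on simulated data. Members, lists and the naming rule (all miR-181 assays, the 5 assays most like miR-181a, listed members) were chosen with earlier results of these data known. From each list the text names members with the highest levels and, chosen after their values were seen, miR-142-3p, miR-155, miR-222, miR-31, miR-210, miR-221, miR-451 and the mouse assay of miR-1.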

Additional observations from a re-analysis of the deposited data

How the results depend on the processing

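miR-181a lay lower in OLETF in all 30 alternatives that gave it a value, from -2.01 to -0.32. It was chosen by this difference and the alternatives reuse the same wells, so the shared sign is no separate evidence. How many other assays kept their sign was not counted. Each lay within 1 pooled SD of the U6 levels (1.36) of -1.26. That bound is wide, as it would also include no difference, and it was used for every reference. With a Ct limit of 32 miR-181a could not be fitted. With 1 sample left out it ran from -2.01 to -0.32 with U6, and from -1.11 to -0.87 with the per-card median. Replicate numbers were not taken as pairs, since the correlations of deviations were -0.088, 0.23 and 0.62; with the replicate block miR-181a stayed at -1.26 and 1 assay passed an adjusted p of 0.05 (limma), miR-466d-3p. On card B, 380 of 380 deposited ratios were matched (within 0.001 on the log2 scale) with replicate 3 of each group as the mean of determined wells, and 194 with each well by itself; on card A, where both members lie, these do not differ. Replicate 3 was therefore also fitted as a batch block: 1 assay passed, again miR-466d-3p, and miR-181a was -1.26. Within replicates 1 and 2 it was -0.83 with U6 and, in an alternative chosen after seeing the data, -1.14 with the per-card median. Array weights gave 32 of 193 assays at adjusted p under 0.05, all of them lower in OLETF, as 156 of the 193 were in the main fit. Among the 32 was miR-181a-1*, which is no member (-2.12, limma adjusted p = 0.0444), and not miR-181a (-1.37). The cause of these changes was not tested. In the other alternatives 0 assays passed. miR-181c could be tested only with the deposited normalized values and with no Ct limit, and it passed in neither. A Ct limit of 32 left 3 of the 7 measured combinations and no limit gave 12; with 1 sample left out there were 5 or 6. The mean spacing, 3.92 cycles from 1 sample, was 4.29 with a limit of 38 and 5.08 without one, by construction as more samples entered; without LETO replicate 3 no value was left. Precision was limited by 1 well per sample for both members.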
